A study of Mus musculus with 4 samples.

Results

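The collagen genes of the mouse, 44 of the 21631 protein-coding genes used here, were described by the accessible chromatin around them in palate mesenchyme. A gene counted as a collagen when its symbol was Col, a number, a and a number. ATAC-seq, which marks open chromatin through the DNA that a transposase can reach, was done on palatal mesenchymal cells sorted by green fluorescence from embryos at E14.5. The 2 control libraries were labelled Shox2Cre/+;Nkx2.5F/F;R26RmTmG and the 2 mutant libraries Shox2Cre/-;Nkx2.5F/F;R26RmTmG. Both groups thus carried a Cre allele at Shox2, a homeobox gene of the anterior palate, 2 floxed alleles of the homeobox gene Nkx2-5 and a fluorescent reporter, and only the other Shox2 allele differed. The controls were therefore not wild type at Shox2, and the sorted cells were those in which Cre expressed from Shox2 had acted. Cre can also cut the floxed Nkx2-5 alleles, and how far it had was not measured here. Cells were pooled, 50000 per group by the labels, which do not say if the 2 libraries of a genotype were separate embryo pools. The p-values below therefore measure only the spread between these samples, which can be technical. Peaks of the 4 libraries that shared at least 1 bp were merged into 39843 regions, of which 34802 had a protein-coding gene within 100 kb of their midpoint. For 178 regions the nearest such gene was a collagen, and 40 of the 44 collagens had at least 1 region. The farthest region inside the limit lay 90.9 kb from Col8a1 and the nearest one outside it 104 kb from the same gene. In all, 14 regions beyond 100 kb had a collagen as their nearest gene and were not counted.

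Collagens are triple-helical proteins of the extracellular matrix, each built from 3 chains that one or several genes encode. Fibrillar collagens form the tensile fibrils of connective tissue, bone and cartilage, network collagens form the sheets of basement membranes, and other types link, coat or anchor these assemblies. In the palate the mesenchyme of the shelves lays down such a matrix before and during shelf elevation, and part of that mesenchyme later forms bone. The genes were sorted into 4 classes. The fibrillar class held 7 genes of types I, III, V and XXIV, the fibril-forming collagens other than those of cartilage. The basement membrane class held 9 genes of types IV, VII, XV and XVIII, and the cartilage class 8 genes of types II, IX, X, XI and XXVII. The other 20 genes covered the beaded filament type VI, the short-chain network type VIII, fibril-associated and membrane-spanning collagens, and remaining types such as XXVI and XXVIII.

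Promoter windows of 300 bases, from 250 before to 50 after a transcript start, were available in RefSeq (build GRCm38.p6, the same as mm10) for 35 of the 44 genes, 38 windows in all. The 7 shown here span the range of what was seen. Col11a1 had the strongest start region among collagens, Col1a2 and Col5a1 were called in every library, Col3a1 in 1 library and Col5a3 in none, and Col4a1 and Col4a2 share 1 open interval. Letters run 5′ to 3′ on the strand of the gene, and capitals mark short promoter motifs found on either strand. These are TATAAA, the core of a TATA box, then CCAAT, bound by NF-Y, and finally GGGCGG, a GC box bound by SP proteins. None of the motifs searched contains another.
Col11a1, chr3:114030290-114030589, plus strand: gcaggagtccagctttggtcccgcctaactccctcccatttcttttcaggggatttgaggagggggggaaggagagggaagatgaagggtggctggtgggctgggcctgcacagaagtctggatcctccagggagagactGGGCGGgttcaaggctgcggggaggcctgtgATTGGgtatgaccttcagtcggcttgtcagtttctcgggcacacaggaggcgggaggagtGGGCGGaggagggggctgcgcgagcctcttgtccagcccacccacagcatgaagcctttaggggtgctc
Col1a2, chr6:4505368-4505667, plus strand: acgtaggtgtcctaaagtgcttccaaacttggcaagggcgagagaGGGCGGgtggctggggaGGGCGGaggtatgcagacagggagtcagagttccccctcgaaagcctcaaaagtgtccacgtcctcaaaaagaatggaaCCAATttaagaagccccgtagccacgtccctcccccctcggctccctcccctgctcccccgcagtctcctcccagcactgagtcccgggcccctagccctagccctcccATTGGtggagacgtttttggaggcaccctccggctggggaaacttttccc
Col5a1, chr2:27886175-27886474, plus strand: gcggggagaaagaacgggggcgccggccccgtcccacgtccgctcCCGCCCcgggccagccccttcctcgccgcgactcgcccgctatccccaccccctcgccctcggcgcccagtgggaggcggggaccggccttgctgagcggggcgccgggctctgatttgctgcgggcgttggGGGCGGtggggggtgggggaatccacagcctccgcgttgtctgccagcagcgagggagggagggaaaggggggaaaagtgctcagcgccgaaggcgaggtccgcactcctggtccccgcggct
Col5a3, chr9:20815018-20815317, minus strand: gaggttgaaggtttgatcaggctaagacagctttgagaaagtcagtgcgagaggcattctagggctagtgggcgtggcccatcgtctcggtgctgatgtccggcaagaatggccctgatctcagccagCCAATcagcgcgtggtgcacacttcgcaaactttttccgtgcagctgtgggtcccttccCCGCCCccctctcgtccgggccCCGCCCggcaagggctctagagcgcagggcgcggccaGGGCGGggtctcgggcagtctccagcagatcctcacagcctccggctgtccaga
Col3a1, chr1:45311288-45311587, plus strand: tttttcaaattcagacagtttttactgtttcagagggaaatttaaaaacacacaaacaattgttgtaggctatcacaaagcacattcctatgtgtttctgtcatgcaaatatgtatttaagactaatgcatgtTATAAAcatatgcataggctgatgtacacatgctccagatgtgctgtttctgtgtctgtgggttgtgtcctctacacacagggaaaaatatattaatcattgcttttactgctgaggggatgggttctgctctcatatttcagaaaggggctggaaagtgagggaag
Col4a1, chr8:11312777-11313076, minus strand: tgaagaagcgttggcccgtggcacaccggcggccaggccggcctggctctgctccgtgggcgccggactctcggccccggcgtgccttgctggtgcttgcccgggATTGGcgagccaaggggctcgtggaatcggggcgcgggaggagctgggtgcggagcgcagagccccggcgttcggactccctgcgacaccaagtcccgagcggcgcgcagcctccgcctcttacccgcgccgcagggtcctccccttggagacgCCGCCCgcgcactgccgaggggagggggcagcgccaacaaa
Col4a2, chr8:11312555-11312854, plus strand: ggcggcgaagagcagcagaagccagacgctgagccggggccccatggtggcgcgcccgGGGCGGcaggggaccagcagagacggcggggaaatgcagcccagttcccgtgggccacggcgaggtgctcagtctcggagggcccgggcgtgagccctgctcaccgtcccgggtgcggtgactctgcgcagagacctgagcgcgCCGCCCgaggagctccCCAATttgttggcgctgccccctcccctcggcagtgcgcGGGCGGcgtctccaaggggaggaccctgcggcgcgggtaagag
The windows of Col4a1 and Col4a2 overlap by 78 bp on opposite strands, and their listed starts lie 21 bp apart.

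A peak overlapped 15 of the 38 collagen windows in all 4 libraries, 9 windows in 1 to 3 libraries and 14 in no library. The share in all 4 was 39.5%, against 50.7% of the 21045 windows of all protein-coding genes. Windows open in all 4 libraries held a median of 16 CpG dinucleotides, with a range of 6 to 37, and those open in none held 8, with a range of 0 to 32. Over all protein-coding genes the medians were 23 and 3. The 14 collagen windows without a peak included CpG-rich ones, among them Col8a2 with 32 CpG, Col13a1 with 29 and Col5a3 with 20. A region beside the Col13a1 window, with its midpoint 0.76 kb into the gene, was still called in control 1 and both mutants. The window of Col3a1, open in mutant 2 alone, held 0 CpG and was 37.7% G or C, the lowest share of the 38. TATAAA, at any position on either strand, was found in 0 of the 15 windows open in all libraries. It was in 4 of the 14 open in none, at Col10a1, Col11a2, Col13a1 and Col17a1. Over all protein-coding genes the shares were 5.46% of the windows open in all libraries and 22.2% of those open in none, and 12.7% of all 21045. The fifth collagen window with TATAAA was that of Col3a1, where the match began at −117 from the start. All motifs were counted at any position, so a match need not be a working box. A GC box was in 12 of the 15 collagen windows open in all libraries and in 7 of the 14 open in none, against 70.6% and 15.7% over all genes and 46.7% of all windows. A CCAAT box was in 7 and 4 of them, against 39.6% and 39.2% over all genes and 38.5% of all windows. Among the 15 windows, those of Col4a1 and Col4a2 overlap, as do those of Col6a2. The only GC box in the Col4a1 window is the same site as a GC box in the Col4a2 window. The homeodomain core TAATTA, searched on both strands, was in the windows of Col10a1 and Col11a2 and in 4.47% of all windows. The SOX core AACAAT was in that of Col3a1 alone (8.91% of all) and the AP-1 site TGANTCA in that of Col6a1 alone (7.04% of all).

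A region counted as a start region when its midpoint lay within 1 kb of a listed transcript start, or of either gene end for the 9 collagens without a listed start. Peaks were ranked by the deposited −log10 p in their own list, and the rank is given as a percentile, near 0 for the weakest and near 100 for the strongest. The lists of control 1, control 2, mutant 1 and mutant 2 held 30225, 22959, 29217 and 31821 peaks on chromosomes 1 to 19 and X. Control 2 was the shortest. The lists hold no read counts, so the depth behind a call or a percentile is unknown and neither carries a counting error. With 2 libraries per group an exact two-sided permutation test cannot give a p under 0.333, so no difference could pass 0.05 by that test, the one used here. Of 8 palate mesenchyme markers, 4 (Twist1, Pax9, Osr2 and Msx1) had a start region in every library, while Shox2 and Pdgfra had none within 1 kb of a start. That is 50% of the list, near the background of 53.0% of all protein-coding genes. The start regions of Prrx1 and Tbx22 were called in 3 and 2 libraries. Markers of other cell types had a start region in every library for 1 of 6 chondrocyte, 0 of 5 osteoblast, 2 of 6 epithelial, 1 of 4 endothelial, 1 of 4 blood, 0 of 4 skeletal muscle and 2 of 4 Schwann or glial genes. Of the epithelial markers these were Epcam and Cdh1, while the keratin genes Krt5, Krt8 and Krt14 had no start region in any library.

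Collagen genes had several regions each, mostly inside the gene body and often in few libraries. They averaged 4.05 regions per gene, against 1.61 over all protein-coding genes, and were long, with a median length of 114 kb against 17.3 kb. Per 100 kb of sequence nearest to the gene they had 2.34 regions, against 1.87 over all genes. Of the 178 regions, 55 (30.9%) held a peak in every library, against a background of 50.4% of assigned regions, and 57 (32.0%) in 1 library, against 22.3%. The 2 sets also lay in different places. Start regions made up 16.3% of collagen regions and 35.4% of all assigned regions, and regions inside the gene but away from a start 60.1% and 35.9%. Within each place the shares in all 4 libraries were 55.2% against 85.2% for start regions, 21.5% against 30.6% inside genes and 38.1% against 32.2% outside genes. A start region in all 4 libraries was found for 17 of the 44 collagens (38.6%), against a background of 53.0% of protein-coding genes. It was called in some libraries for 14 more, and 13 had none. Among the 35 collagens with a listed start the share was 42.9%, against 54.3% of the 17274 genes with one. Fibrillar genes had such a start region in 5 of 7 cases, basement membrane genes in 4 of 9, cartilage genes in 3 of 8 and the other collagens in 5 of 20.

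**Figure D1:**
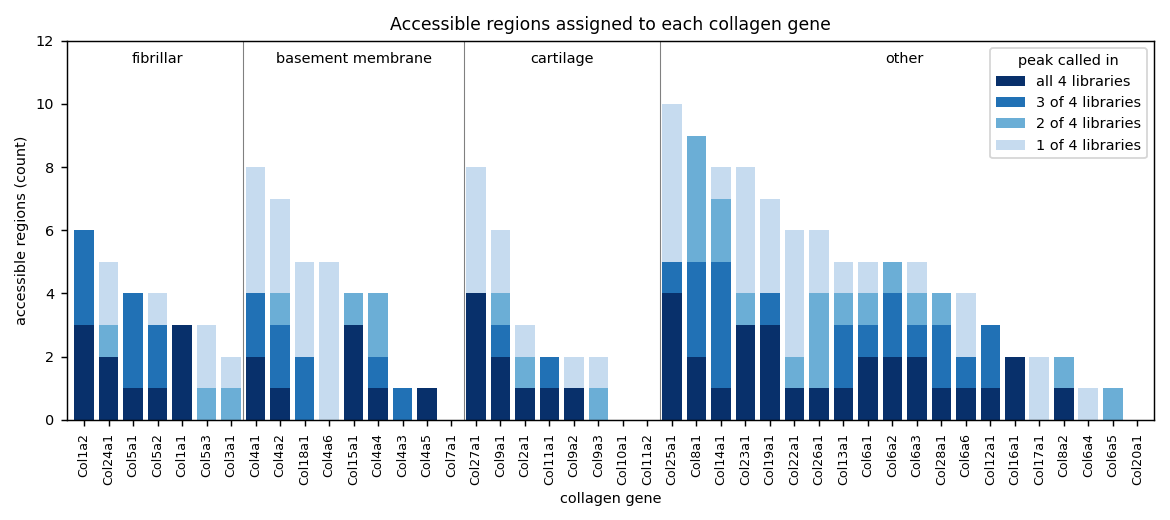
Number of accessible regions (vertical axis) assigned to each of the 44 collagen genes, grouped by class, with bar segments shaded by the number of libraries that held a peak. Col25a1 had the most, 10, and Col7a1, Col10a1, Col11a2 and Col20a1 had 0.

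Among fibrillar genes the start regions of Col1a2, Col5a1 and Col5a2 ranked high in every library, and that of Col3a1 was near the floor of the lists. Col1a2 encodes the second chain of type I collagen, the main collagen of bone and connective tissue. Its start region (mm10, chromosome 6, 4505063 to 4506625) had percentiles of 81.1 and 69.5 in controls 1 and 2 and 80.8 and 81.3 in mutants 1 and 2. The lowest was that of control 2, and the groups overlapped. Col5a1 and Col5a2 encode chains of type V collagen, which sets the width of type I fibrils. The Col5a2 start region (chromosome 1, 45501447 to 45503575) was at 78.8 and 74.4 in controls and 80.6 and 83.9 in mutants. Both mutants lay above both controls, as they did in 29.1% of all regions called in every library. The Col5a1 start region (chromosome 2, 27885515 to 27887466) was at 78.7 and 64.3, and 78.3 and 79.7. Again control 2 was lowest and the groups overlapped.

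The other fibrillar genes had weaker or missing start regions. Col1a1, the partner of Col1a2, had a region at its lower-coordinate end (chromosome 11, 94936130 to 94937718). A peak covered the end itself in only 1 library. The region was at percentiles of 44.1 and 44.3 in controls and 44.5 and 53.2 in mutants. Both mutants lay above both controls, mutant 1 by little, and all 4 values lay below those of Col1a2 in the same libraries. Col24a1, a fibrillar collagen of bone and cornea, had a start region at 47.4 and 31.9 in controls and 47.5 and 47.6 in mutants. There control 1 and both mutants were nearly level and control 2 was low. Col3a1, which forms mixed fibrils with type I collagen in soft tissue, had a start region (chromosome 1, 45311134 to 45312362) in mutant 2 alone, at a percentile of 4.40. A second Col3a1 region 2.57 kb into the gene was called in control 2 and mutant 2, at 7.10 and 25.5. Its neighbour Col5a2 on chromosome 1 thus had a strong start region in every library while Col3a1 had one in mutant 2 alone. Col5a3 had no start region. Its nearest region, 2.0 kb into the gene, was held by the mutants alone.

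Beyond the starts, the 2 type I genes had regions outside the gene in every library. Col1a2 had 6 regions, of which 1 was its start region and 5 lay outside the gene. The 2 upstream regions in every library lay 48.5 kb (chromosome 6, 4456160 to 4458118) and 88.3 kb (4416991 to 4417716) from the start. The nearer was at percentiles of 73.6 and 66.6 in controls and 60.8 and 67.0 in mutants, and the farther at 63.0 and 48.9, and 69.9 and 58.9. The groups overlapped at both. Col1a1 had 3 regions, all in every library, of which 2 lay 7.23 kb and 39.0 kb outside the gene. Of the 10 fibrillar regions in every library, 5 were start regions, 4 lay outside a gene and 1 inside.

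**Figure D2:**
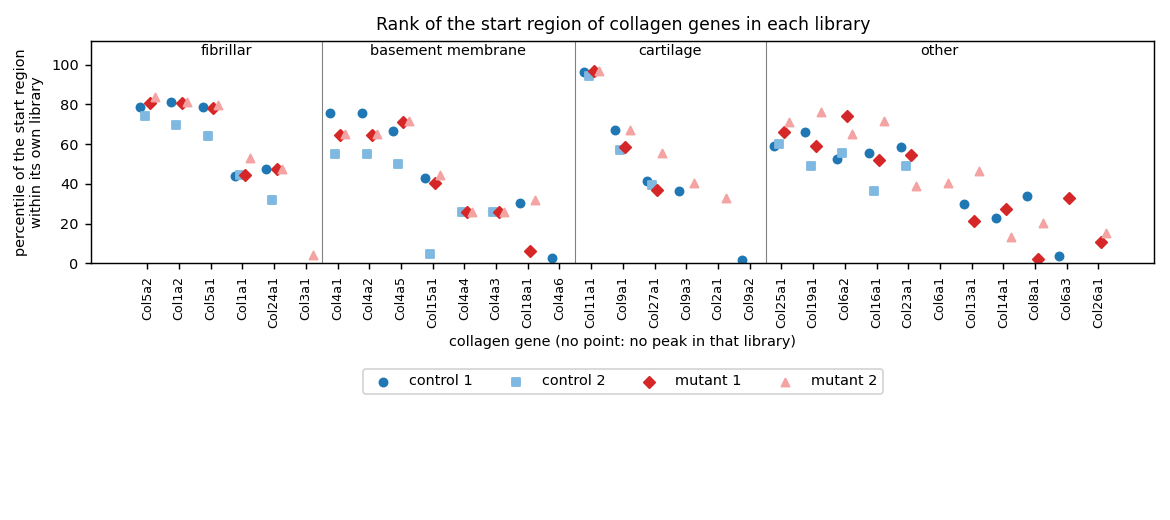
Percentile of the start region within each library (vertical axis, 0 to 100) for the 31 collagen genes that had one, with a marker per library (blue shades for controls, red shades for mutants) and no marker where no peak was called. Col11a1 stands highest in every library, and Col5a2, Col1a2 and Col5a1 follow, while the point of Col3a1 is a single one at 4.40.

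In the cartilage class one gene held the strongest collagen start region of all, and 2 had no region. Col11a1 encodes a chain of type XI collagen, which nucleates cartilage fibrils and is also made in other mesenchyme. Its start region (chromosome 3, 114029836 to 114030819) was at percentiles of 96.1 and 94.4 in controls and 96.7 and 96.7 in mutants, with deposited fold enrichments of 10.1, 9.20, 9.75 and 9.63. Both mutants lay just above both controls. Col11a2, which encodes another chain of the same protein, had 0 regions, and so did Col10a1, the collagen of hypertrophic cartilage. The sequence nearest to Col11a2 spanned only 40.9 kb and that nearest to Col10a1 only 7.2 kb. Col27a1, a fibrillar collagen of cartilage, had 8 regions. A region 75.9 kb into it (chromosome 4, 63290834 to 63291718) ranked above its start region in every library, at 90.2 and 78.0 in controls and 87.4 and 91.7 in mutants. The start region was at 41.6 and 39.5, and 37.0 and 55.4, and the groups overlapped at both.

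Col2a1, the main fibrillar collagen of cartilage, had a region in every library inside the gene but not at an end. That region (chromosome 15, 97992294 to 97993389) lay at 66.5 and 68.3 in controls and 66.4 and 67.2 in mutants, close together in all 4 libraries. The region at the higher-coordinate end of Col2a1 was called in mutant 2 alone, at 32.9. Type IX collagen decorates type II fibrils. Of its 3 genes, Col9a1 had a start region in every library, 0.872 kb from the second of its 2 listed starts, at 67.0 and 57.3 in controls and 58.4 and 66.9 in mutants. The window at that second start was overlapped by a peak in control 2 and mutant 1 only. No peak overlapped the window at the first listed start of Col9a1. The start region of Col9a2 was called in control 1 alone, at 1.74, but a region 1.75 kb into that gene was in every library. The end region of Col9a3 was called in control 1 and mutant 2, at 36.5 and 40.6.

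Type IV collagen is the network of basement membranes, and its 6 genes are arranged in head-to-head pairs. The pairs differed in how the interval between their starts was called. The interval of Col4a1 and Col4a2, the chains found in most tissues, was 1 region (chromosome 8, 11311705 to 11313681) that covered both starts. It lay at percentiles of 75.7 and 55.1 in controls and 64.5 and 65.1 in mutants, so the controls were both the highest and the lowest. By the midpoint rule it was counted under Col4a1, although it is the start region of both genes. The interval of Col4a3 and Col4a4 (chromosome 1, 82586162 to 82587492), chains of kidney, lung and inner ear, was called in control 2 and both mutants, at 25.8, 26.1 and 25.9. For Col4a5 and Col4a6 on chromosome X the listed starts lay 1343 bp apart. The Col4a5 start region was in every library, at 66.8 and 49.9 in controls and 70.9 and 71.5 in mutants, with no overlap of the groups. The Col4a6 start region was called in control 1 alone, at 2.62, and each of the 5 Col4a6 regions was called in 1 library.

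The strongest basement membrane region was not at a start. It lay 5.29 kb beyond the far end of Col4a1 (chromosome 8, 11192554 to 11193721), at percentiles of 86.5 and 82.7 in controls and 78.0 and 87.8 in mutants. Col15a1, a collagen of the outer face of basement membranes, had 4 regions, of which 3 were in every library. Its start region was at 43.0 and 4.51 in controls and 40.3 and 44.7 in mutants, with control 2 far below the rest. A region near its other end (chromosome 4, 47312519 to 47313361) was at 67.7 and 52.4, and 55.6 and 64.9. Col18a1, the precursor of endostatin, had 5 regions and none in every library, and its start region was called at 30.6 in control 1 and 6.47 and 32.1 in the mutants. Col7a1, the anchoring fibril collagen of skin and mucosa, had 0 regions in the 33.9 kb of sequence nearest to it.

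**Figure D3:**
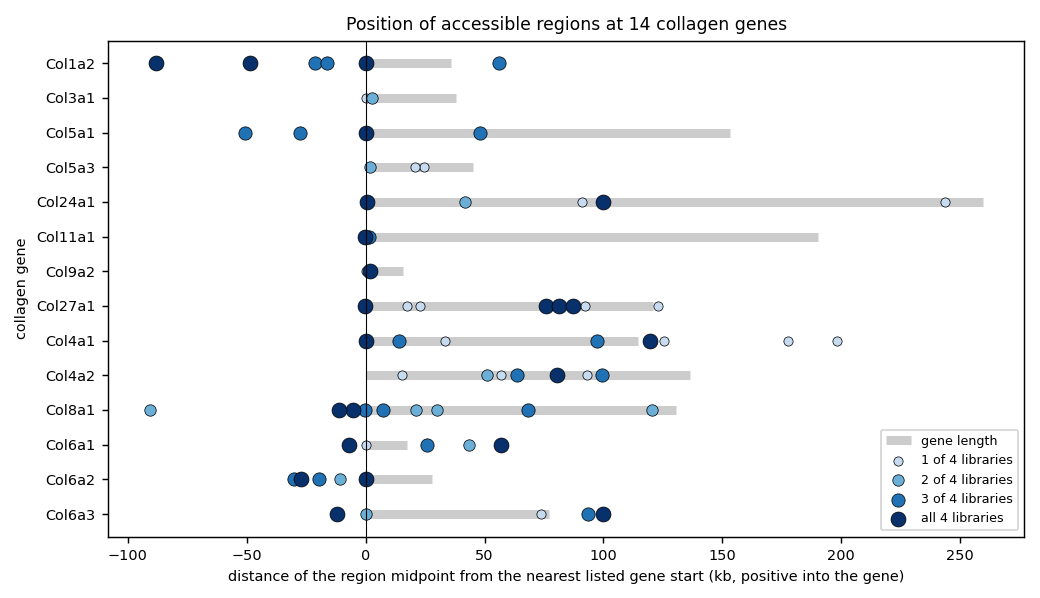
Distance in kb of each region's midpoint from the nearest listed gene start (horizontal axis, positive into the gene) at 14 collagen genes with a listed start, with marker size and shade for the number of libraries and a grey bar for the length of the gene. Col1a2 and Col6a2 carry their regions at or outside the gene, while those of Col4a2 and Col24a1 lie inside it.

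The type VI genes, whose product forms beaded filaments around cells, differed between members encoded by neighbouring genes. Col6a2 had a start region in every library (chromosome 10, 76623009 to 76624088), at percentiles of 52.3 and 55.4 in controls and 73.9 and 64.9 in mutants, so both mutants lay above both controls. Col6a1, next to it on chromosome 10, had a start region in mutant 2 alone, at 40.4. A region 7.18 kb before the Col6a1 start (76732670 to 76733772) was in every library, at 68.7 and 57.2 in controls and 68.5 and 71.4 in mutants. The start region of Col6a3 was called in control 1 and mutant 1, at 3.79 and 32.7, and a region 12 kb before it was in every library. Col6a4, Col6a5 and Col6a6, which lie together on chromosome 9, had 1, 1 and 4 regions and no start region.

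The 3 strongest regions of the class of other collagens lay outside genes, at Col8a1, Col16a1 and Col19a1. Col8a1, a short-chain collagen of vessels and cornea, had 9 regions. The strongest of them, 5.48 kb before its start (chromosome 16, 57759755 to 57760677), was at percentiles of 79.6 and 70.8 in controls and 82.7 and 82.1 in mutants. Both mutants lay above both controls there. Its start region was called in control 1 at 34 and in the mutants at 2.0 and 20.4. A region 11.0 kb before the start of Col16a1, a fibril-associated collagen (chromosome 4, 130036166 to 130037557), was at 82.2 and 82.7 in controls and 71.9 and 83.1 in mutants. The Col16a1 start region was at 55.6 and 36.4, and 51.9 and 71.7. The groups overlapped at both.

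The highest-ranked region of any collagen lay 24.9 kb from Col19a1 (chromosome 1, 24612356 to 24613356). It had the highest −log10 p and the highest fold enrichment of all peaks in each of the 4 lists, with folds of 30.2 and 28.7 in controls and 30.3 and 29.4 in mutants. The gene table places the pseudogene Gm10222 inside it and the pseudogene Gm10925, with the synonym mt-Atp6 of a mitochondrial gene, 0.615 kb away. The part of reads from mitochondrial DNA in this peak was not tested. Without this region 54 collagen regions were in every library. At Col19a1 itself the start region was at 66.2 and 48.9 in controls and 59.0 and 76.0 in mutants.

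Several members of the class of other collagens had many regions. Per 100 kb of sequence nearest to the gene, Col25a1, Col23a1 and Col14a1 had 2.05, 2.68 and 3.28, against 2.34 over all collagens. Col25a1, a membrane-spanning collagen of neurons and 420 kb long, had 10 regions, of which 4 were in every library. Its start region was at 59.0 and 60.3 in controls and 65.9 and 71.4 in mutants, so the groups did not overlap. Col23a1, another membrane-spanning collagen, had 8 regions and a start region at 58.4 and 48.9, and 54.3 and 38.9, where the groups overlapped. Col14a1, a fibril-associated collagen of dermis and tendon, also had 8 regions. Control 1 held 7 peaks there, mutant 1 held 7, mutant 2 held 6 and control 2 held 1. The region at the lower-coordinate end of Col14a1 was called at 22.9 in control 1 and 27.5 and 13.0 in the mutants. Col22a1 and Col26a1 had 6 regions, Col13a1 had 5 and Col28a1 had 4. The start region of Col13a1 (chromosome 10, 61977905 to 61978792) was called at 29.8 in control 1 and 21.4 and 46.7 in the mutants. No peak covered the listed start itself. Col12a1, a fibril-associated collagen, had 3. Col8a2 and Col17a1, the latter a hemidesmosome collagen of epithelium, had 2 each. Neither Col17a1 region was called in more than 1 library, and Col20a1 had 0 regions in the 37 kb nearest to it.

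Regions that followed genotype were few. A peak in both controls and no mutant was seen in 0 of the 178 collagen regions, against a background of 1.07% of assigned regions. A peak in both mutants and no control was seen in 8 (4.49%), against a background of 4.01%, which is near the same share. By class these were 1 of 27 fibrillar regions, 0 of 35 basement membrane regions, 0 of 23 cartilage regions and 7 of the 93 regions of the other collagens. The fibrillar one lay inside Col5a3 (chromosome 9, 20812715 to 20813416), at percentiles of 24 and 4.0 in mutants 1 and 2. Col8a1 had 2, inside the gene, at 57634027 to 57634656 (9.93 and 14.4) and at 57724399 to 57725149 (7.82 and 19.1). That at Col28a1, 30.9 kb outside the gene (chromosome 6, 7965785 to 7966666), had the highest lower percentile of the 8, at 26.9 and 44.8.

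The remaining 4 mutant-only regions were weak in at least 1 mutant. A region at the far end of Col13a1 (chromosome 10, 61838552 to 61839257) was at 36.2 and 3.26, and one 26.2 kb from Col6a1 (chromosome 10, 76682093 to 76683082) at 10.2 and 18.9. One inside Col23a1 (chromosome 11, 51414083 to 51415188) was at 3.89 and 20.4, and one at the higher-coordinate end of Col26a1 (chromosome 5, 136881924 to 136883361) at 10.5 and 15. In all 16 absences from a control list, at least 1 numbered peak had been removed between the neighbouring listed peaks. A missing call therefore does not show that no peak was found. The gaps spanned 30.4 to 257 kb, so a removed peak need not have lain at the region. With 22959 peaks taken from every list, 2 regions were control-only, at Col25a1 and Col8a1, and 4 were mutant-only, at Col1a2, Col28a1, Col5a2 and Col6a2. These made up 1.59% and 3.17% of 126 collagen regions, against backgrounds of 2.11% and 2.11%. Of the 8 mutant-only regions above, that of Col28a1 was the only one still mutant-only at equal peak numbers. In the full lists the equal-number regions at Col1a2, Col5a2 and Col6a2 also held a peak in control 1. That at Col25a1 also held one in mutant 1, and that at Col8a1 one in mutant 2. Shortening the lists cut those low-ranked peaks, so these regions followed genotype only in the shortened lists. Leaving out 1 library, which lets a single list stand for its group, gave 3 to 23 control-only regions, the most without control 2. It gave 15 to 29 mutant-only regions, the most without control 1.

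Peaks at collagen genes made up a like share of every list. They numbered 127 and 83 in controls 1 and 2 and 115 and 130 in mutants 1 and 2, or 42.0 and 36.2 against 39.4 and 40.9 per 10000 peaks of the library. The control values lay on both sides of the mutant values, with a difference of the means, control minus mutant, of −1.02 (exact permutation p = 1). The difference was 1.91 without control 2, −3.96 without control 1 and −0.218 at equal peak numbers. Fibrillar genes had 6.62 and 6.53 peaks per 10000 in controls and 7.19 and 7.23 in mutants. Both mutants lay above both controls, with a difference of −0.633 (exact permutation p = 0.333). Col1a2 held 5 and 4 of the 20 and 15 fibrillar peaks in controls and 7 and 7 of the 21 and 23 in mutants. Its 7 peaks in each mutant fell in 6 regions. In no other fibrillar gene did both mutant counts exceed both control counts. The difference without Col1a2 was not tested. With equal peak numbers the fibrillar difference was −0.653, but the exact permutation p was 1 and the groups no longer lay apart. It was −0.354 with genes within 50 kb and −1.07 in the upper 50% of each list. Cartilage genes had 6.29 and 5.23 in controls and 4.79 and 4.71 in mutants. Both controls lay above both mutants, with a difference of 1.004 (exact permutation p = 0.333). Col27a1 held 8 and 5 of the 19 and 12 cartilage peaks in controls and 5 and 5 of the 14 and 15 in mutants. The difference without Col27a1 was not tested. At equal peak numbers the cartilage difference was 0, in the upper 50% of each list 0.235, and without control 1 it was 0.474. The 6 chondrocyte markers, at 8.27 and 5.66 in controls and 9.24 and 7.86 in mutants, overlapped between the groups and had the higher mean in the mutants. Of the 36 regions of that list, Sox6 held 16 and Sox5 held 13.

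In the remaining classes the groups overlapped. Basement membrane genes had 7.94 and 6.53 peaks per 10000 in controls and 5.82 and 7.86 in mutants, a difference of 0.399 (exact permutation p = 0.667). It was −0.304 without control 1, −0.620 without mutant 1 and −0.333 in the upper 50% of each list. The other collagens had 21.2 and 17.9 in controls and 21.6 and 21.1 in mutants, a difference of −1.79 (exact permutation p = 0.667). It was −0.135 without control 2, −3.45 without control 1 and −0.218 at equal peak numbers. Fibrillar differences rest on 15 to 23 peaks per library and cartilage differences on 12 to 19.

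**Figure D4:**
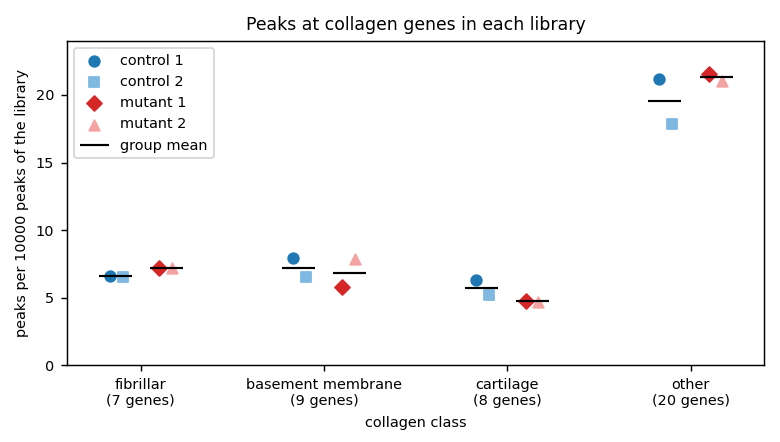
Peaks assigned to collagen genes per 10000 peaks of the library (vertical axis) in the 4 classes, with a marker per library and a bar for each group mean. The mutants lie above the controls in the fibrillar class (7.19 and 7.23 against 6.62 and 6.53) and below them in the cartilage class (4.79 and 4.71 against 6.29 and 5.23). With equal peak numbers neither separation remained (exact permutation p = 1 for both).

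Among the 55 collagen regions called in every library, the median percentile was 56.7 and 44.8 in controls and 57.6 and 58.8 in mutants. The difference of the means was −7.47 percentile points (exact permutation p = 0.333). Control 2 was lowest here and also over all assigned regions in every library, where the medians were 70.2, 60.9, 69.0 and 71.5. The difference was 1.46 without control 2, −16.8 without control 1, −2.70 at equal peak numbers, and −0.979 when regions were ranked among those in all 4 libraries only, so that the length of the lists does not enter. Both mutant percentiles lay above both control percentiles in 18 of the 55 (32.7%), against a background of 29.1% of regions in all 4 libraries. Both lay below in 2 (3.64%), against a background of 5.61%. Ranked among regions in all 4 libraries only, the counts were 13 (23.6%) and 10 (18.2%), against backgrounds of 17.6% and 18.0%.

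The widest separations, picked by size from these same data, were mostly at regions inside genes. Of all 55 collagen regions in every library, 23 lay inside a gene away from a start. Higher in both mutants were a region of Col23a1 (chromosome 11, 51539355 to 51540098), at 28.3 and 8.70 in controls and 53.0 and 55.3 in mutants, and one of Col4a4 (chromosome 1, 82476118 to 82477309), at 21.8 and 11.1, and 53.9 and 44.5. Next came Col25a1 (chromosome 3, 130289951 to 130290725), at 56.8 and 18.6, and 61.8 and 65.9. There, control 1 lay close to the mutants and control 2 far below. A region 39.0 kb outside Col1a1 (chromosome 11, 94896618 to 94897750) was at 32.7 and 7.83, and 36.3 and 53.3. Col27a1 held a region on each side. That at 63296385 to 63297395 on chromosome 4 was at 8.32 and 11.4 in controls and 29.9 and 33.9 in mutants, and that at 63302363 to 63303102 at 19.5 and 37.1, and 5.25 and 4.41. The other region higher in both controls lay inside Col15a1 (chromosome 4, 47227638 to 47228311), at 61.0 and 44.8, and 16.4 and 31.1. The difference between the 2 regions of Col27a1, which lay 81.5 kb and 87.3 kb into the gene, was not tested.

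**Figure D5:**
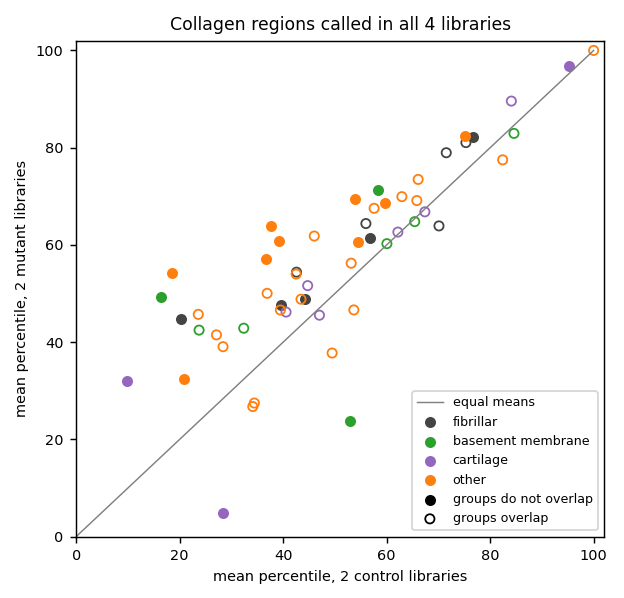
Mean percentile in the 2 mutant libraries (vertical axis) against that in the 2 control libraries (horizontal axis) for the 55 collagen regions called in every library, coloured by class, filled where the groups do not overlap. Of the filled points, 18 lie above the line of equal means and 2 below it, and control 2 had the lowest median percentile (44.8).

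Genes whose products process, bind or degrade collagen were described in the same way. Of 28 processing genes, 19 (67.9%) had a start region in every library, beside 17 of the 44 collagens and 53.0% of all protein-coding genes, and the difference between the lists was not tested. The prolyl 4-hydroxylase gene P4ha1, which stabilises the triple helix, was at percentiles of 95.2 and 90.02 in controls and 94.8 and 97.1 in mutants. The chaperone gene Serpinh1, whose product binds the triple helix in the endoplasmic reticulum, was at 64.7 and 53.9, and 54.7 and 66.2, and the groups overlapped. The cross-linking enzyme gene Lox was at 10.6 and 8.58 in controls and 27.1 and 24.2 in mutants, so its groups did not overlap. No start region was called for Loxl2, Loxl4, P4ha3 or Plod2. Of 8 receptor genes, 5 had a start region in every library, and that of Itgb1, the shared beta chain of collagen-binding integrins, was at 95.3 and 96.0, and 97.5 and 96.6. Of 10 collagenase and proteoglycan genes, 5 had one (Dcn, Lum, Sparc, Mmp14 and Mmp2). These 3 lists held 0 control-only regions and 3, 1 and 1 mutant-only regions out of 67, 24 and 23. The mutant-only shares were 4.48%, 4.17% and 4.35%, near the background of 4.01%, and the control-only background was 1.07%. The mutant-only regions lay at Colgalt2, Loxl1, P3h1, Itgb1 and Dcn.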

How the data were processed

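ATAC-seq peak lists of 2 control and 2 mutant libraries were used, grouped by the labels. The authors deposited 1 list per library in the 10 columns of the narrowPeak layout and without a header. The submitters' processing notes name mm10 as the build. The aligner, the peak caller with its settings and any shift of reads for the transposase, which could move peak edges, were not named in what was used here. Ranks within a library came from the deposited −log10 p-value. The deposited enrichment was read as a fold from its values and place in the layout, and what it is relative to is unknown. The deposited score, the −log10 q-value and the summit offset were not used further. The numbers in the deposited peak names skip, so peaks were removed after numbering, and 23.8% to 27.8% of numbered peaks were listed.

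Peaks outside chromosomes 1 to 19 and X were dropped, and those sharing 1 bp or more became 1 region. Each region went to the nearest protein-coding gene within 100 kb of its midpoint (RefSeq, GRCm38.p6), with 0 ties among collagen regions. Counts were set beside those over all assigned regions, without a test, and library values were compared by exact two-sided permutation. The sequence nearest to a gene was measured on a grid of 100 bp. Given by library were every genotype-specific region, the 3 regions per class with the highest lower percentile, their start regions and those of the genes with most regions, and up to 5 regions per direction whose groups did not overlap. Values of other members were chosen after they were seen. The members, classes and lists were chosen with earlier results of these data known. Merging and assignment were tested on simulated data. Python 3.11.15, pandas 2.3.3, numpy 2.4.6 and scipy 1.17.1 were used. Other settings tried were shorter lists, equal peak numbers, a 50% overlap, a 50 kb window, distance from the region edge, a 2 kb start window, ranking by enrichment, a replicate block and leaving out each library.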

Additional observations from a re-analysis of the deposited data

How the results depend on the processing

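Of 106 values under other settings, 86 kept their direction or stayed within 1.5 times. The 86 include the replicate-block values, which could not move, and the 50% overlap and region-edge values, which equalled the main ones. The upper 50% of the peaks gave 55 collagen regions, 21 in all 4 libraries, 3 mutant-only and 9 genes with a start region in all 4; the basement membrane difference was −0.333. Equal peak numbers gave 2 control-only regions and 4 mutant-only ones, and the cartilage difference was 0. Of those regions, only that of Col28a1 was genotype-specific in the full lists too. With 1 library left out, ranges were 3 to 23 control-only and 15 to 29 mutant-only regions, −3.96 to 1.91 for all collagen peaks per 10000, −0.620 to 1.42 for basement membrane peaks and −16.8 to 1.46 for the median percentile. The directions turned without control 2 for all collagen peaks (1.91) and the median percentile (1.46), and for basement membrane peaks without control 1 (−0.304) or mutant 1 (−0.620). Apart from fewer peaks or libraries by construction, the cause was not tested. A block on the replicate number cannot move a difference of means in this balanced design (−1.02 for all collagen peaks) and bears only on the exact p, which cannot be under 0.5. Deviations of control 1 and mutant 1 from their group means did not go together over the 44 genes (r = −0.0117). That value cannot show whether same-numbered libraries were processed together. Ranking among shared regions and leaving out the strongest region were chosen after seeing the data. The depth that limits each call cannot be read from peak lists.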
